A study of Mus musculus with 24 samples.

Results

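Dexamethasone (DEX) is a synthetic glucocorticoid, and its effect on the prefrontal cortex (PFC) was followed here in mice with an active coping strategy (AS) after chronic social defeat. The members are the 8 AS libraries of the 24 PFC libraries in the table, 4 from saline-injected and 4 from DEX-injected animals, and all 14074 genes of the table were tested. AS animals were male C57BL/6 mice aged 10 to 12 weeks that met aggressive CD1 males on 30 consecutive days and were then injected 24 h after the last defeat with saline or with 2 mg/kg DEX, with tissue taken 6 h later. AS was assigned by hierarchical clustering of behavior during non-aggressive contact, so the group is a behavioral class and not a genotype. The mice given saline were numbers 8, 14, 40 and 44, and those given DEX were numbers 38, 42, 60 and 72. Values below follow this order. The other 16 libraries, used for the comparison between phenotypes, came from male C57BL/6 animals of the same design: 8 defeated mice with a passive coping strategy (PS) and 8 intact controls, each group with 4 saline and 4 DEX libraries.

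Glucocorticoids enter cells and bind the glucocorticoid receptor (GR), which moves to the nucleus, binds response elements in DNA and raises or lowers the transcription of nearby genes. In brain, GR is present in neurons, glia and the cells of blood vessels, and the steroid is known for inducing its own brakes, such as Fkbp5, and for repressing inflammatory genes. The question addressed was how the PFC of AS animals responds to this receptor within hours.

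Each value is a read count per gene that the authors divided by a size factor of the library (normalized count). The recovered depth on genes was 23481722, 37364186, 40268349 and 31120877 reads in the saline libraries and 42489960, 52422858, 33263292 and 24908942 reads in the DEX libraries. A gene was called differentially expressed (DEG) at a Benjamini-Hochberg adjusted p under 0.1 in a limma model of log2(normalized count + 1) over all 24 libraries, and fold changes are on that scale, which understates those of low genes. A cortical marker gene was high in every AS library. Slc17a7, the vesicular glutamate transporter of cortical projection neurons, had 43074 to 47590 normalized counts with saline and 43857 to 49722 with DEX. Of the striatal markers 8 of 12 were measured, with summed levels of 6733 to 7660 normalized counts with saline and 7610 to 9729 with DEX. Of the choroid plexus markers 2 of 8 were measured, at summed levels of 51.5 to 148 normalized counts over the 8 libraries, led by Kcnj13.

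Saline mouse 44 and DEX mouse 60 stood apart from the rest of their groups. The chi-square per gene between mouse 44 and the other saline libraries was 34.1 to 46.4, against 15.8 to 16.9 among the other 3, and that between mouse 60 and the other DEX libraries was 46.7 to 80.9, against 20.3 to 23.2. Relative to the mean of the 8 AS libraries, the 96 nuclear genes of oxidative phosphorylation were higher by 0.28 (log2) in mouse 44 and 0.33 in mouse 60 and between -0.16 and -0.02 in the other 6 libraries. The 51 protocadherin genes, which encode neuronal adhesion proteins, lay at -0.29 and -0.38 in these mice and between 0.07 and 0.17 in the others. The main counts are therefore also given without them.

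The DEX label was borne out by 3 genes that GR is known to induce. Fkbp5 (chr17:28399094-28517527), which encodes a co-chaperone that lowers the affinity of GR for hormone, had 820, 774, 878 and 1088 normalized counts with saline and 2931, 3484, 2965 and 4038 with DEX. Every DEX library lay above every saline library by a wide margin. The log2 fold change was 1.91 (SE 0.11, limma, Benjamini-Hochberg adjusted p = 3.79e-11). Tsc22d3 (chrX:140539528-140600659), which encodes the anti-inflammatory protein GILZ, had 1122, 1191, 1216 and 1585 normalized counts with saline and 2360, 2650, 2763 and 2970 with DEX. Its log2 fold change was 1.08 (SE 0.09, limma adjusted p = 5.67e-08). Sgk1 (chr10:21882184-21999903), a kinase that regulates ion channels and transporters, had 1112, 1077, 1296 and 1371 normalized counts with saline and 1856, 2188, 2120 and 2311 with DEX, again without overlap. Its log2 fold change was 0.81 (SE 0.10, limma adjusted p = 2.38e-05). Mouse 44 was the highest saline library for each of these 3 genes. Nr3c1, which encodes GR itself, had 2870, 2929, 2972 and 2666 normalized counts with saline and 2549, 2532, 2196 and 2137 with DEX. These groups did not overlap either, but the log2 fold change of -0.28 (SE 0.10) did not pass the threshold (limma adjusted p = 0.105). It passed in 9 of 35 alternative settings, among them DESeq2 (adjusted p = 0.0712) and a limma fit of the AS libraries alone (adjusted p = 0.0907), where the adjusted p over all settings ran from 0.0388 to 0.259. Nr3c2, which encodes the mineralocorticoid receptor, fell by 0.27 on the log2 scale (limma adjusted p = 0.0878), while its groups overlapped. The fall did not pass in a fit of the AS libraries alone (limma adjusted p = 0.307). Of the 17 genes for corticosteroid receptors, chaperones and cofactors, 1 rose (Fkbp5), 1 fell (Nr3c2) and 15 did not pass. This is 5.88% each way, against 3.82% of all genes rising and 4.95% falling, and the list's median log2 fold change was 0.04. The chaperone Hsp90ab1, the most abundant of the list, had a log2 fold change of 0.10.

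Letters of the GR response element were looked for in promoters, from 250 bases before to 50 after the RefSeq start sites (GRCm38.p6), of the 10029 measured genes with such a window. The element searched has the arms GNACA and TGTNC, read on either strand, with 3 bases of any kind between them, and a gene with several start sites counted once. It was present in 42 of the 10029 genes (0.419%), in 10 of the 415 genes that rose after DEX in AS (2.41%) and in 0 of the 535 that fell. The single arm AGAACA, which overlaps the element, was present in 14.5% of all these genes, 16.1% of those that rose and 15.3% of those that fell, and the E-box CACGTG, the element of clock factors, in 11.9%, 12.5% and 9.16%. A match describes letters in this window and is not a measured binding site. The 10 windows are shown because they carry the element beside genes that rose, with the element in capitals, 20 flanking bases on each side in lower case, and they are listed from the largest log2 fold change to the smallest.
Kcna5: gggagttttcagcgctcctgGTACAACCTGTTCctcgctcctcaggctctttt
Map3k6: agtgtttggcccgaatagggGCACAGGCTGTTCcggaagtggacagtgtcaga
Sgk1: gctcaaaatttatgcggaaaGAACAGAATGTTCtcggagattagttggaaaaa
Car14: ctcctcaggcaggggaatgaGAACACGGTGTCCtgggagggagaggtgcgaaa
Mt1: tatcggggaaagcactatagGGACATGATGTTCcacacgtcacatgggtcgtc
Suox: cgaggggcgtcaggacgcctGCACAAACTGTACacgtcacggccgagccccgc
Fam107a: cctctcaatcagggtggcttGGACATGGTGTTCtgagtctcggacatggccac
Mterf2: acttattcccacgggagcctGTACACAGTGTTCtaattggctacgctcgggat
Map7d2: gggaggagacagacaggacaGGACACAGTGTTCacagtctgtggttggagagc
Ipcef1: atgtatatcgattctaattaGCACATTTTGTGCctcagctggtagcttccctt

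Each window is written on the strand of its gene. That of Sgk1 lies at chr10:21993682-21993734 on the plus strand, with the element 188 bases before the start, and Sgk1 was the only one of the 10029 genes with the full-length palindrome, whose arms are AGAACA and TGTTCT. That of Kcna5, a voltage-gated potassium channel, lies at chr6:126535582-126535634 on the minus strand, 59 bases before the start. The element of Map3k6, a stress-activated kinase, lies 181 bases before the start, in chr4:133240617-133240669 on the plus strand, and that of the metallothionein Mt1 lies 94 bases before it, in chr8:94178975-94179027 on the plus strand. The windows of Car14, a carbonic anhydrase, and Suox, a sulfite oxidase, are chr3:95904878-95904930 and chr10:128673932-128673984 on the minus strand, and those of Fam107a and Mterf2 are chr14:8309865-8309917 and chr10:85128135-85128187 on the minus strand. Map7d2 (chrX:159459115-159459167, plus strand) had the element 10 bases after the start and Ipcef1 (chr10:6980428-6980480, minus strand) 179 bases before it. The log2 fold changes of the 10 genes ran from 0.26 for Ipcef1 to 1.12 for Kcna5. The rises of Ipcef1, Car14 and Mterf2 passed in 14, 20 and 29 of 35 alternative settings. Those of Ipcef1 and Mterf2 did not pass in a fit of the AS libraries alone, and that of Car14 did not pass without saline mouse 8, 14 or 40 or DEX mouse 38, 42 or 72.

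Over all genes, 1234 of 14074 (8.77%) passed the limma threshold after DEX in AS, of which 537 rose (3.82%) and 697 fell (4.95%). The median log2 fold change was 0.37 among the genes that rose and -0.46 among those that fell, and 43 rises and 39 falls were at least 1 in size. For 849 of the 1234 DEGs the ranges of saline and DEX animals were fully separate, against 1270 such genes (9.02%) in the whole table. Without mice 44 and 60 there were 1874 DEGs, of which 849 rose (6.03% of all genes) and 1025 fell (7.28%), and 1152 of the 1234 were among them in the same direction. List counts given below without these mice are to be read against 6.03% and 7.28%. Leaving out saline mouse 8 gave 673 DEGs and leaving out saline mouse 44 gave 1985, so that the number of calls depended strongly on single animals. With each of the 8 AS libraries left out in turn, 531 genes (253 that rose and 278 that fell) passed in all 8 fits.

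**Figure D1:**
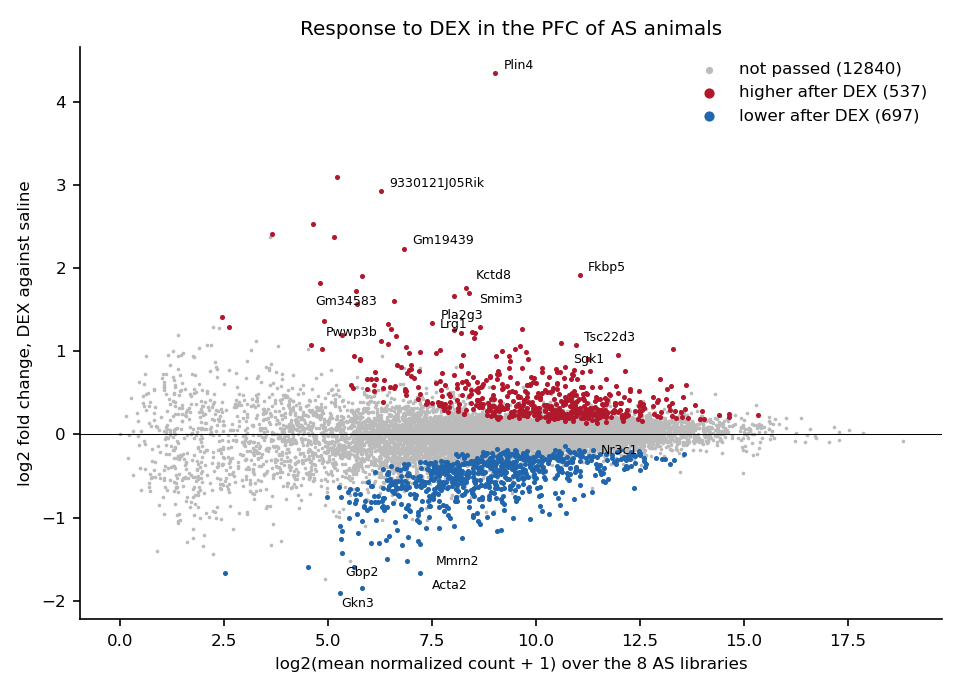
Change after DEX against level in AS animals. Each point is a gene, with log2(mean normalized count + 1) over the 8 AS libraries on the x axis and the log2 fold change on the y axis; the 537 genes that rose are red, the 697 that fell are blue and genes that did not pass are grey, and Plin4 stands highest among the labelled genes.

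The largest rise among DEGs with separate groups and a mean of at least 50 normalized counts was that of Plin4 (chr17:56100591-56109803), which encodes perilipin 4, a protein that coats lipid droplets. It had 44.9, 29.1, 44.2 and 89.2 normalized counts with saline and 997, 1003, 949 and 1008 with DEX. The DEX libraries were nearly equal, while mouse 44 was the highest of the saline libraries. The log2 fold change was 4.34 (SE 0.30, limma adjusted p = 2.27e-09). The lncRNA 9330121J05Rik (chr3:62337524-62340532) followed, with 20.1, 20.9, 12.9 and 14.9 normalized counts against 123, 138, 116 and 169. Its log2 fold change was 2.93 (SE 0.21, limma adjusted p = 5.09e-09). Gm19439 (chr3:88030878-88033150), a transcript of unknown coding status, rose by 2.23. Kctd8, an auxiliary subunit of GABA-B receptors, rose by 1.77, from 104, 150, 143 and 183 to 401, 471, 484 and 607 normalized counts. The small membrane protein gene Smim3 rose by 1.71, the secreted phospholipase gene Pla2g3 by 1.66 and the transcript Gm34583 by 1.60. Lrg1 (chr17:56119678-56122001), which encodes a secreted glycoprotein that acts on vessels and lies near Plin4 on the same chromosome, rose by 1.33, as did Pwwp3b. In every one of these genes each DEX animal exceeded each saline animal, which the rule for naming them required.

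The 10 largest falls by the same rule were those of Gkn3, Acta2, Mmrn2, Gbp2, Aif1l, Cd93, H2-Eb1, H2-Ab1, H2-Q4 and H2-Aa. Gkn3 (chr6:87383256-87388935), a marker of arterial endothelium, had 81.5, 54.4, 101 and 114 normalized counts with saline and 20.3, 20.045, 35.5 and 18.4 with DEX. Mouse 60 was the highest DEX library and still below every saline library. The log2 fold change was -1.85 (SE 0.25, limma adjusted p = 4.39e-05). Acta2 (chr19:34241090-34255590), the actin of smooth muscle, had 240, 96.1, 383 and 196.8 normalized counts with saline and 67.5, 47.7, 77.6 and 66.8 with DEX. The saline libraries spread widely, with mouse 14 near the DEX range. Its log2 fold change was -1.66 (SE 0.38, limma adjusted p = 0.00791). Mmrn2 (chr14:34375465-34404287), a matrix protein of endothelium, fell by 1.53, and Cd93, a receptor of endothelial cells, fell by 1.32. Gbp2, an interferon-induced GTPase, fell by 1.50, from 123, 101, 154 and 115 to 26.9, 31.4, 65.2 and 58.7 normalized counts. Aif1l, an actin-binding protein related to the microglial marker Aif1, fell by 1.33, with 149, 148, 175 and 157 normalized counts against 64.9, 50.4, 75.1 and 58.7. Its 4 values in each group lay close together. The class II antigen presentation genes H2-Eb1, H2-Ab1 and H2-Aa fell by 1.31, 1.31 and 1.27 and the class I gene H2-Q4 by 1.28.

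**Figure D2:**
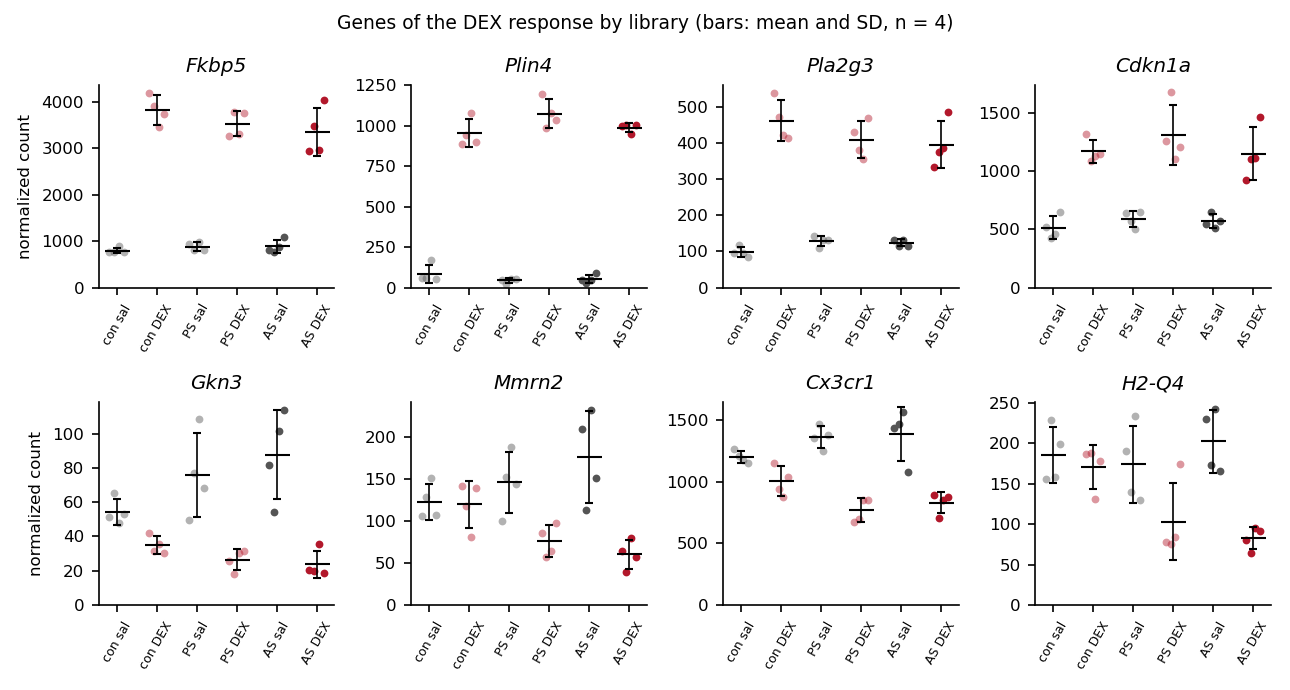
Normalized counts of 8 genes named in the text in each of the 24 libraries. The x axis gives the 6 groups (con, control; sal, saline), points are mice, and bars give the mean and SD (n = 4); in AS the DEX points lie apart from the saline points in each panel, upwards for Fkbp5, Plin4, Pla2g3 and Cdkn1a and downwards for Gkn3, Mmrn2, Cx3cr1 and H2-Q4.

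Among 34 measured genes that glucocorticoids are known to induce, 25 rose, 0 fell and 9 did not pass, with a median log2 fold change of 0.57, against 3.82% of all genes rising and a median of 0.0024 over all genes. Without mice 44 and 60, 23 of them rose and 1 fell. The rises ran from 0.23 to 4.34, and 22 of them passed with each AS library left out. Cdkn1a, the cell cycle inhibitor p21, had 549, 649, 515 and 571 normalized counts with saline and 923, 1101, 1109 and 1466 with DEX. It rose by 0.99 (SE 0.14, limma adjusted p = 7.16e-05). Hif3a, a negative regulator of hypoxia signalling, rose by 1.29, and the metallothioneins Mt2 and Mt1, which bind zinc and copper, by 0.90 and 0.58. Lcn2, an acute-phase protein, had 3.54, 0.745, 6.13 and 1.75 normalized counts with saline, which are 9 reads or fewer, and 8.53, 16.3, 18.2 and 38.0 with DEX. The groups did not overlap, and the fitted log2 fold change of 2.41 (limma adjusted p = 0.0109) depends on the pseudocount. Fam107a, an actin-associated protein and the most abundant gene of the list, rose by 0.46. The 9 genes that did not pass had log2 fold changes between -0.45 and 0.55.

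Of 56 endothelial genes, 28 fell, 2 rose and 26 did not pass after DEX in AS, with a median log2 fold change of -0.54, against 4.95% of all genes falling. The falls ran from -0.36 to -1.85 (log2), 50 of the 56 genes had a negative value, and the falls numbered 38 without mice 44 and 60 and 14 to 37 with 1 AS library left out, with 14 of the 28 passing in all 8 of these fits. Slc38a5, an amino acid transporter of the blood-brain barrier, had 63.8, 67.1, 108 and 56.0 normalized counts with saline and 24.3, 20.6, 37.2 and 15.0 with DEX. It fell by 1.59 (SE 0.31, limma adjusted p = 0.00198). Tek and Tie1, the receptors of the angiopoietin pathway that keeps vessels stable, fell by 1.25 and 1.10. Tek had 456, 318, 558 and 342 normalized counts with saline and 170, 149, 236 and 142 with DEX. For Tie1 mouse 60 was the high DEX library, at 222 normalized counts against 145 to 148 in the other 3. Mfsd2a, the lipid transporter of the barrier, moved the other way. It had 451, 439, 452 and 572 normalized counts with saline and 1004, 1022, 1259 and 1315 with DEX, a rise of 1.26 (SE 0.13, limma adjusted p = 7.75e-07). Cd34, the other endothelial gene that rose, changed by 0.25 and its groups overlapped, and it did not pass in a fit of the AS libraries alone (limma adjusted p = 0.245). Bsg, the most abundant gene of the list, had a log2 fold change of -0.19 and did not pass.

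Of 21 genes of pericytes and smooth muscle, the cells that wrap vessels, 10 fell and 11 did not pass, against 4.95% of all genes falling, with a median log2 fold change of -0.65, and all 21 values were negative. Notch3, the receptor that maintains vascular smooth muscle, had 605, 394, 632 and 303 normalized counts with saline and 258, 246, 206 and 220 with DEX. It fell by 0.99 (SE 0.17, limma adjusted p = 0.000815). Tagln, an actin-binding protein of contractile cells, fell by 1.23, and Rgs5, a pericyte marker and the most abundant of the list, by 0.72 with overlapping groups. Without mice 44 and 60, 15 of the 21 fell, and with 1 AS library left out 4 to 14 did, with 4 falls kept in all 8 fits. The falls of Tagln and Rgs5 each lost the threshold when saline mouse 8 or 40 or DEX mouse 38, 42 or 72 was left out, whereas those of Acta2 and Notch3 passed without any of the 8 libraries. Of 19 leptomeningeal fibroblast genes, 2 fell (Slc22a6, an organic anion transporter, by 0.99 and Bgn, a matrix proteoglycan, by 0.66), with a median of -0.58 and all 19 values negative. The falls numbered 1 without mice 44 and 60, 4 in edgeR and in DESeq2 and 5 in a fit of the AS libraries alone, and neither of the 2 passed with each AS library left out. Of 6 genes of border macrophages 3 fell, among them Pf4 by 1.60, but 0 of the 3 passed with each AS library left out (1 to 4 falls), and Pf4 did not pass without DEX mouse 38 or in a fit of the AS libraries alone.

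The levels of the vascular lists differed between animals of the same group. Summed over the endothelial list, normalized counts were 62632, 53125, 68510 and 59574 with saline and 46312, 47151, 57322 and 49128 with DEX. DEX mouse 60 lay above saline mouse 14, so the summed levels overlapped. Summed over the pericyte and smooth muscle list they were 13605, 9274, 14915 and 9706 with saline and 7615, 7234, 8339 and 8066 with DEX. Here the groups did not overlap, and saline mice 8 and 40 stood highest in both lists. The 5 blood genes measured, led by Hbb-bs, summed to 1155 to 3140 normalized counts with saline and 1168 to 3599 with DEX, and 0 of them passed in limma, edgeR or DESeq2, or had an unadjusted p under 0.05. In bulk tissue, fewer cells of a type and less RNA per cell cannot be told apart, and the part of vessel content in these values was not tested.

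**Figure D3:**
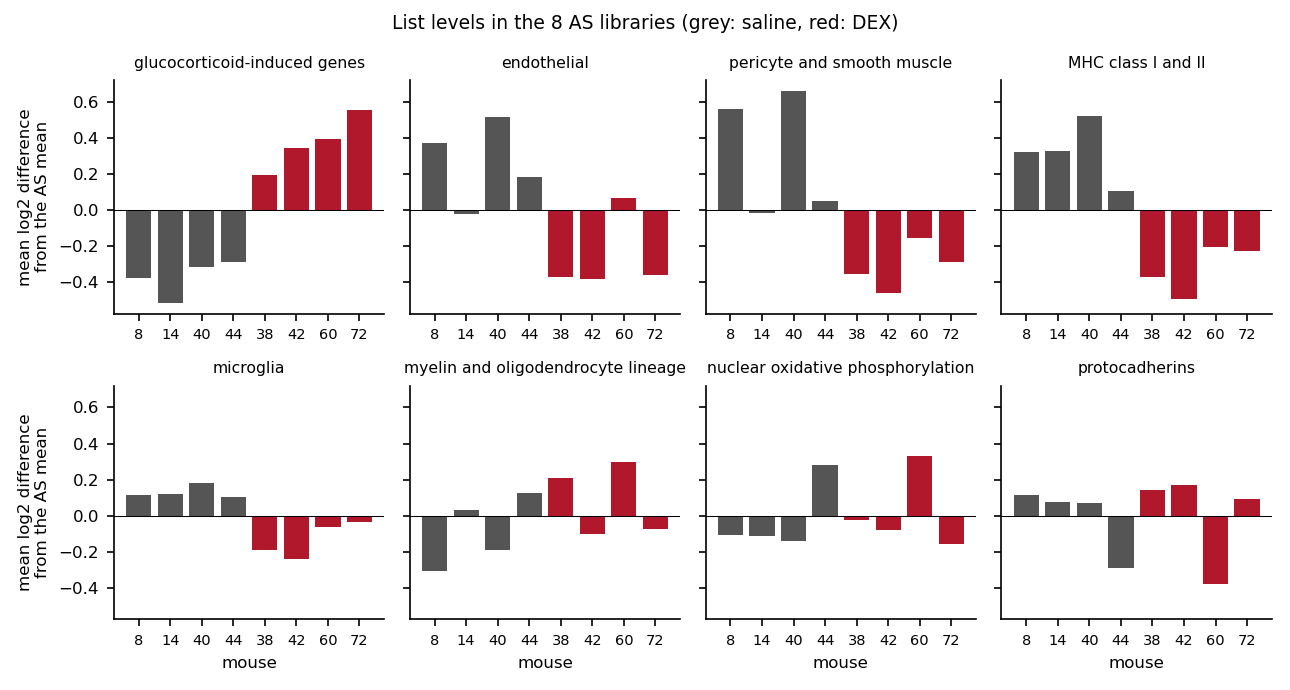
Levels of 8 gene lists in the 8 AS libraries. Bars give the mean log2 difference of the list's genes from their mean over the 8 libraries, by mouse on the x axis (grey, saline; red, DEX); glucocorticoid-induced genes separate the groups, endothelial genes are at 0.51 in saline mouse 40 and 0.07 in DEX mouse 60, and oxidative phosphorylation and protocadherin genes set mice 44 and 60 apart.

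Many genes of antigen presentation, and some of microglia, the resident macrophages of brain, fell after DEX in AS. Of 18 genes for class I and class II antigen presentation, 11 fell and 7 did not pass (median -0.52), against 4.95% of all genes falling, and 9 of the 11 passed with each AS library left out. H2-Q4 (chr17:35379617-35385290) had 230, 174, 242 and 165 normalized counts with saline and 80.0, 63.9, 94.9 and 92.1 with DEX, and its log2 fold change was -1.28 (SE 0.23, limma adjusted p = 0.000918). H2-Aa had 90.9, 151, 159 and 77.0 against 52.5, 37.9, 35.5 and 66.8. In both genes the groups were apart, and mouse 44 was the lowest saline library for H2-Q4. H2-Q6 fell by 1.91, but class I genes are near-identical copies, so counts of H2-Q6 and H2-Q4 are uncertain. B2m, the shared light chain of class I molecules and the most abundant of the list, had a log2 fold change of -0.06 and did not pass.

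Of 33 microglial genes, 12 fell, 1 rose and 20 did not pass (median -0.28), against 4.95% of all genes falling and 3.82% rising. The falls numbered 16 without mice 44 and 60 and 7 to 15 with 1 AS library left out, and 6 of the 12 passed in all 8 fits. Cx3cr1 (chr9:119901616-120069879), the fractalkine receptor, had 1435, 1468, 1568 and 1075 normalized counts with saline and 891, 701, 847 and 876 with DEX. Mouse 44 was low among the saline libraries and still above all DEX libraries. The log2 fold change was -0.73 (SE 0.11, limma adjusted p = 0.000119). Aif1, which encodes the microglial marker IBA1, and Gpr34, a lysophosphatidylserine receptor, fell by 0.71 and 0.58, where Aif1 did not pass without DEX mouse 72. Tlr7, a sensor of single-stranded RNA, rose by 0.52 with overlapping groups, and did not pass in a fit of the AS libraries alone (limma adjusted p = 0.331). Summed over the list, normalized counts were 21282 to 22709 with saline and 17450 to 20028 with DEX, without overlap.

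Of 27 interferon response genes, 7 fell and 20 did not pass (median -0.40), against 4.95% of all genes falling, led by Gbp2, the related GTPase Gbp3 (-1.15) and Ifitm3 (-0.77), an antiviral membrane protein. In 25 of the 27 the value was negative, and 2 of the 7 falls passed with each AS library left out (3 to 12 falls). Ifitm3 did not pass without saline mouse 40. Of 29 genes listed for the NF-kappaB pathway, which carries inflammatory signals, 17 were measured, and Tnfaip3, Icam1 and Ccl2 were among those that were not. Of the 17, 3 fell. They were the adhesion molecule Icam2 (-1.25), the chemokine Cxcl12 (-0.70) and the subunit Nfkb1 (-0.23), of which Cxcl12 alone passed with each AS library left out. Icam2 did not pass without DEX mouse 42, nor Nfkb1 without saline mouse 8 or 40 or DEX mouse 38, 42 or 72. Cxcl12 had 2062, 1422, 2070 and 1454 normalized counts with saline and 1184, 1053, 1219 and 826 with DEX. Of 15 complement genes 2 fell, the receptor subunits Itgam (-0.47) and Itgb2 (-0.33), neither of which passed without saline mouse 8 or 40 or DEX mouse 42.

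**Figure D4:**
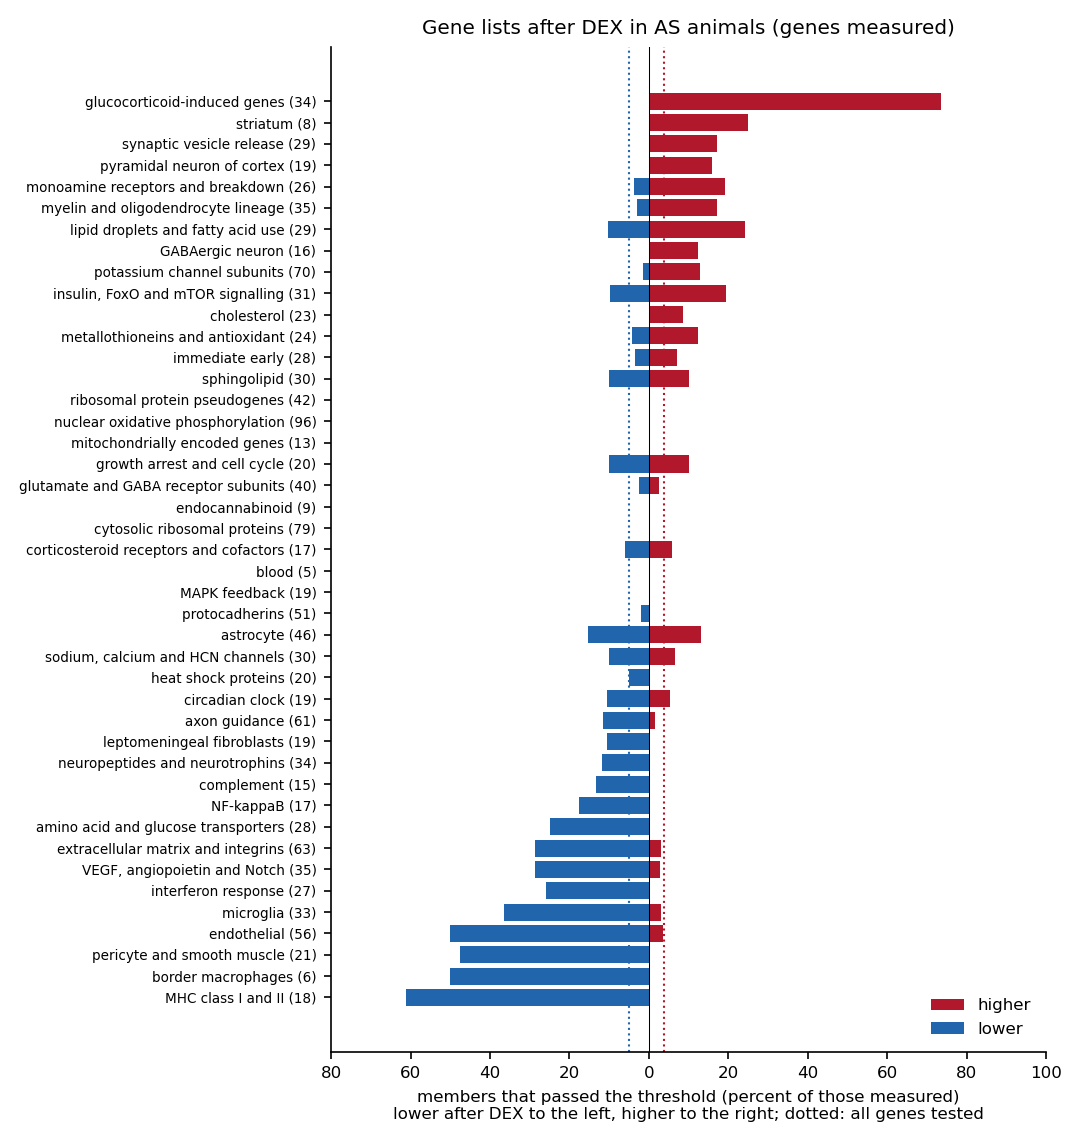
Members of 43 gene lists that passed the threshold after DEX in AS. Bars give the percentage of measured members that rose (red, right) or fell (blue, left), list sizes are in brackets and the dotted lines mark 3.82% and 4.95% of all genes; glucocorticoid-induced genes reach furthest to the right, and genes of antigen presentation, border macrophages, endothelium and mural cells furthest to the left.

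Some genes of the extracellular matrix and of vascular signalling also fell. Of 63 genes for extracellular matrix and integrins, 18 fell, 2 rose and 43 did not pass (median -0.23), against 4.95% of all genes falling and 3.82% rising. With each AS library left out, 12 of the falls passed (12 to 25 falls). The falls numbered 23 without mice 44 and 60. Emilin1, an elastic fibre protein, had 152, 143, 134 and 101 normalized counts with saline and 60.3, 57.4, 71.8 and 62.2 with DEX. It fell by 1.05 (SE 0.19, limma adjusted p = 0.00089). Lama3, a laminin chain, fell by 1.01 and Hspg2, the basement membrane proteoglycan perlecan, by 0.97. Saline mouse 44 was the lowest saline library for both, and for Hspg2 it lay within the DEX range. Of 35 genes of VEGF, angiopoietin and Notch signalling, 10 fell, 1, Hif3a, rose and 24 did not pass (median -0.16), against 4.95% of all genes falling and 3.82% rising. Jag1, a Notch ligand, had 192, 178, 222 and 160 normalized counts with saline and 96.4, 77.5, 112 and 81.8 with DEX, without overlap, and fell by 1.03 (SE 0.17, limma adjusted p = 0.000511). Of 61 genes of axon guidance, 7 fell and 1 rose (median -0.09), against 4.95% of all genes falling and 3.82% rising. The falls were led by Sema3g (-0.89), a semaphorin of endothelium, Ntn1 (-0.80), the guidance cue netrin 1, and Ephb4 (-0.65), a venous ephrin receptor, and the rise was that of the netrin receptor Unc5a (0.30). Without mice 44 and 60 the falls numbered 16 in the VEGF, angiopoietin and Notch list and 12 in the axon guidance list, and with 1 AS library left out 7 to 15 and 5 to 14. Of the 10 and 7 falls, 7 and 5 passed in all 8 fits. Ephb4 did not pass without saline mouse 8 or 40 or DEX mouse 38 or 42.

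Glial genes moved in both directions. Of 46 astrocyte genes, 6 rose and 7 fell (median -0.09), against 3.82% of all genes rising and 4.95% falling. With each AS library left out, 4 of the rises and 5 of the falls passed. The rises included Htra1, a secreted protease (0.54), Mertk, a receptor for engulfment (0.52), and Gjb6, the gap junction protein connexin 30 (0.49). Gjb6 had 1554, 1408, 1580 and 1533 normalized counts with saline and 1947, 1986, 2093 and 2557 with DEX. The falls included Gjb2, the gap junction protein connexin 26 (-1.08), Gli3, a transcription factor of the hedgehog pathway (-0.61), and Id3 (-0.60). Gjb2 had 490, 596, 709 and 380 normalized counts with saline and 267, 211, 196 and 352 with DEX. The groups were apart by little, since saline mouse 44 and DEX mouse 72 were close. Slc1a2, the glutamate transporter and most abundant astrocyte gene, had a log2 fold change of -0.08 and did not pass.

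Of 35 genes of myelin and the oligodendrocyte lineage, 6 rose and 1 fell (median 0.19), against 3.82% of all genes rising and 4.95% falling. The rises numbered 9 without mice 44 and 60 and 3 to 10 with 1 AS library left out, and 3 rises and 0 falls passed in all 8 fits. Mobp (chr9:120149707-120181484), a myelin protein, had 2109, 3112, 2257 and 3594 normalized counts with saline and 5823, 4470, 6446 and 4539 with DEX. Saline mice 8 and 40 were low and DEX mice 38 and 60 high. The log2 fold change was 0.96 (SE 0.19, limma adjusted p = 0.00229). Hapln2, a link protein of the nodes of Ranvier and the neighbour of Gm19439 on chromosome 3, rose by 1.01, and the myelin protein Mal by 0.62. Pllp, another myelin membrane protein, fell by 0.37, but not without DEX mouse 42 or 72. Mbp, the most abundant of the list, had a log2 fold change of 0.50 and did not pass (limma adjusted p = 0.102). Summed over the list, normalized counts were 32955, 44891, 35740 and 48854 with saline and 58207, 47642, 63586 and 47121 with DEX, so that the groups overlapped at mouse 44. Across these lists, saline mice 8 and 40 were highest for vessels and lowest for myelin, and the part of tissue composition in either was not tested.

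Among neuronal genes, a few receptors for monoamines and peptides changed. Of 26 genes for monoamine receptors and breakdown, 5 rose, 1 fell and 20 did not pass (median 0.01), against 3.82% and 4.95% of all genes. Htr1a, the inhibitory serotonin receptor, had 355, 382, 338 and 386 normalized counts with saline and 576, 649, 589 and 546 with DEX, tight groups far apart. It rose by 0.69 (SE 0.13, limma adjusted p = 0.00145). Adra2a, the inhibitory adrenergic receptor, had 472, 392, 462 and 324 normalized counts with saline and 664, 679, 524 and 879 with DEX, a rise of 0.73 (SE 0.16, limma adjusted p = 0.00605). The dopamine receptor Drd1 rose by 0.70 with overlapping groups, and not in a fit of the AS libraries alone (limma adjusted p = 0.298). The histamine receptor Hrh1 had 628, 555, 524 and 432 normalized counts with saline and 406, 391, 316 and 299 with DEX. It fell by 0.60 (SE 0.11, limma adjusted p = 0.000966). Of 34 genes for neuropeptides, neurotrophins and their receptors, 4 fell, 0 rose and 30 did not pass (median 0.01). Crhr1 (chr11:104132855-104175523), the receptor of the stress peptide corticotropin-releasing hormone, had 1038, 978, 971 and 849 normalized counts with saline and 602, 556, 606 and 501 with DEX. It fell by 0.76 (SE 0.09, limma adjusted p = 8.86e-06) and its groups were far apart. Bdnf, which supports synapses, fell by 0.47, with 913 to 1162 normalized counts against 606 to 802, and the cholecystokinin receptor Cckbr by 0.32. With each AS library left out, 3 of the 5 rises and the fall passed in the monoamine list and 2 of the 4 falls in the neuropeptide list, and Bdnf did not pass without DEX mouse 38.

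Some genes of excitability and release changed, in lists whose counts are to be read against 3.82% of all genes rising and 4.95% falling. Of 70 potassium channel subunits, 9 rose and 1 fell (median 0.04), and 5 of the rises and the fall passed with each AS library left out. Kcna5 had 41.3, 53.7, 45.6 and 50.7 normalized counts with saline and 127, 97.0, 97.4 and 100 with DEX, with mouse 38 the highest. It rose by 1.12 (SE 0.22, limma adjusted p = 0.00216). Kcng2, a modifier subunit, rose by 0.61, Kcnab3, a beta subunit, by 0.63, and Kcnn3, a calcium-activated channel, fell by 0.64. Kcnab3 did not pass in DESeq2, and neither Kcnab3 nor Kcnn3 passed in a fit of the AS libraries alone. Of 29 genes of synaptic vesicle release, 5 rose and 0 fell (median 0.12), and 2 of the rises passed with each AS library left out. Syt2 (chr1:134646677-134762593), the fast calcium sensor of release, had 316, 550, 533 and 673 normalized counts with saline and 999, 1041, 1196 and 959 with DEX, a rise of 1.06 (SE 0.24, limma adjusted p = 0.0087). Syn3, a synapsin, rose by 0.76 and Vamp1, a vesicle SNARE, by 0.42. Syn3 did not pass in a fit of the AS libraries alone or without saline mouse 44 or DEX mouse 38, 42 or 72, and Vamp1 did not pass without saline mouse 8. Of 30 sodium, calcium and HCN channel genes, 2 rose and 3 fell, and the falls were led by Hcn3 (-0.34). The 3 falls had overlapping groups, and 0 of them passed in a limma fit of the AS libraries alone or with each AS library left out. The 2 rises had separate groups and 3 genes rose in the fit of the AS libraries alone, but 0 of the 2 passed with each AS library left out. In this list 5 rose and 2 fell without mice 44 and 60. Of 28 immediate early genes, Arc (0.79), a regulator of glutamate receptors at synapses, and Jun (0.36) rose and Nptx2 (-0.52), a secreted synaptic pentraxin, fell. Arc did not pass without saline mouse 40, its lowest library, and Jun did not pass without saline mouse 40 or 44 or DEX mouse 38, 42 or 72. Of 19 pyramidal neuron markers 3 rose, led by Bcl11b (0.75), a factor of deep layer neurons, of 16 GABAergic neuron markers 2 rose, led by Pvalb (0.59), and of 8 striatal markers 2 rose, Drd1 among them. With each AS library left out, 1 of the 3, 0 of the 2 and 1 of the 2 passed. Neither GABAergic rise passed in a fit of the AS libraries alone, and Pvalb was highest in DEX mouse 60, at 1673 normalized counts against 867 to 972 in the other DEX libraries. Among 40 glutamate and GABA receptor subunits 1 rose, Gria1 (0.20), and 1 fell, Gabrd (-0.28), which is 2.50% each way and below the shares of all genes. Both had overlapping groups, and neither passed in a fit of the AS libraries alone. Among these subunits 4 rose and 3 fell without mice 44 and 60, against 6.03% of all genes rising and 7.28% falling in that fit.

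Metabolic genes changed in small numbers and in both directions. Of 29 genes for lipid droplets and fatty acid use, 7 rose and 3 fell (median 0.01), against 3.82% of all genes rising and 4.95% falling. Pnpla2, the main triglyceride lipase, had 636, 568, 613 and 665 normalized counts with saline and 984, 1026, 1215 and 1468 with DEX. It rose by 0.90 (SE 0.10, limma adjusted p = 6.88e-06). Angptl4, an inhibitor of lipoprotein lipase, rose by 0.83, where DEX mouse 72 stood alone at 242 normalized counts against 83.4 to 107 in the other 3, and it did not pass without that mouse. Lpl, the lipase itself, fell by 0.46 and Plin2, another droplet coat protein, by 0.49. Of 31 genes of insulin, FoxO and mTOR signalling, 6 rose and 3 fell (median 0.01), against 3.82% of all genes rising and 4.95% falling. Irs2 (0.42), Sesn1 (0.41) and Ddit4 (0.41), of which the last 2 restrain mTOR, led the rises, and Igfbp7 (-0.52) and Akt2 (-0.43) the falls. Akt2 had 3765, 3272, 3483 and 3070 normalized counts with saline and 2480, 2286, 2714 and 2567 with DEX. Of 28 amino acid and glucose transporters, 7 fell and 0 rose (median -0.07), against 4.95% of all genes falling and 3.82% rising. Slc16a1, the monocarboxylate transporter, was among those that fell (-0.63). It had 809, 811, 788 and 791 normalized counts with saline and 471, 473, 575 and 561 with DEX, a wide gap beside the spread within groups. Of 30 sphingolipid genes, 3 rose and 3 fell (median 0.03), against 3.82% of all genes rising and 4.95% falling. Spns2, the exporter of sphingosine 1-phosphate, rose by 0.72 (SE 0.07, limma adjusted p = 2.12e-07), and its receptor S1pr1 fell by 0.57 and its lyase Sgpl1 by 0.37. The sphingolipid genes that fell numbered 6 without mice 44 and 60, against 7.28% of all genes falling in that fit. With each AS library left out, 5 rises and 1 fall passed in the lipid list, 3 and 1 in the insulin list, 1 and 3 in the sphingolipid list, and 5 of the 7 falls of transporters. Plin2, Irs2 and Igfbp7 were among those that did not.

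In each of the remaining lists at most 4 genes passed, beside 3.82% of all genes that rose and 4.95% that fell. Of 19 clock genes, Hlf (0.43) rose and Dbp (-0.33) and Bhlhe41 (-0.24) fell. Of 23 cholesterol genes 2 rose, the synthesis enzyme Fdft1 (0.43) and the exporter Abcg1 (0.28). Of 24 metallothionein and antioxidant genes 3 rose, Mt1, Mt2 and Srxn1 (0.20), and 1 fell, the cystine transporter Slc7a11 (-0.77). Of 20 genes of growth arrest and cell cycle, Cdkn1a and Ccng1 (0.35) rose, and the cyclin Ccnd1 (-0.42) and the inhibitor Cdkn1c (-0.39) fell. Of 20 heat shock genes 1 fell, Hspb1 (-0.66), and of 51 protocadherins 1 fell, Pcdh20 (-0.45). With each AS library left out, the falls of Dbp, Bhlhe41, Slc7a11, Cdkn1c, Hspb1 and Pcdh20 and the rise of Srxn1 each lost the threshold at least once. Among 19 genes of MAPK feedback, 9 endocannabinoid genes, 79 cytosolic ribosomal proteins, 42 ribosomal protein pseudogenes, 13 mitochondrially encoded genes, 96 nuclear genes of oxidative phosphorylation and 2 choroid plexus genes, 0 passed in the limma fit, with medians of 0.04, 0.05, -0.08, -0.01, -0.01, 0.05 and -0.61. At an unadjusted p under 0.05 there were 3, 0, 0, 2, 1, 2 and 0 genes in these lists. In edgeR and DESeq2 1 and 2 genes of MAPK feedback and 1 and 0 of the pseudogenes passed, and 0 of the other 5 lists passed in either tool. When mice 44 and 60 were left out, 3 genes of oxidative phosphorylation rose and 1 gene of MAPK feedback fell. In that fit 6.03% of all genes rose and 7.28% fell.

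The AS response was set beside those of control and PS animals, which have saline libraries of their own. Depth differed between phenotypes. Median reads on genes with saline and DEX were 22869703 and 23492572 in control, 24008146 and 24187702 in PS, and 34242532 and 37876626 in AS. The deepest PS saline library had 59439645. With libraries thinned to equal depth, 1247 genes were called in AS. By the same limma fit, 567 genes rose (4.03%) and 346 fell (2.46%) in control animals, and 386 rose (2.74%) and 369 fell (2.62%) in PS animals. Of the 537 genes that rose in AS, 266 also rose in PS, which is 49.5% of the AS list and 68.9% of the PS list, and 236 rose in control, 43.9% of the AS and 41.6% of the control list. Of the 697 that fell in AS, 251 fell in PS (36.0% of the AS and 68.0% of the PS list) and 106 in control (15.2% and 30.6%). Values had the same sign as in AS for 97.2% of the rises and 97.3% of the falls in PS, and for 75.8% and 69.9% in control. The genes that rose in AS had a median log2 fold change of 0.29 in PS and 0.21 in control, and those that fell had medians of -0.31 and -0.09. These genes were chosen because they passed in AS, which favors large AS values. Smaller medians in the other phenotypes therefore do not by themselves show a weaker response.

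The glucocorticoid-induced list had medians of 0.57 in AS, 0.62 in PS and 0.66 in control, with 25, 26 and 28 of 34 genes rising. The endothelial list had medians of -0.54, -0.18 and 0.15, with 28, 8 and 2 of 56 genes falling and 2, 2 and 7 rising. The pericyte and smooth muscle list had medians of -0.65, -0.24 and 0.14, with 10, 0 and 0 of 21 genes falling. The antigen presentation list had medians of -0.52, -0.45 and -0.09, with 11, 10 and 0 of 18 falling, and the myelin list medians of 0.19, -0.07 and -0.30, with 6, 1 and 2 of 35 rising and 1, 3 and 13 falling. These counts do not test the difference between phenotypes, which was tested gene by gene.

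**Figure D5:**
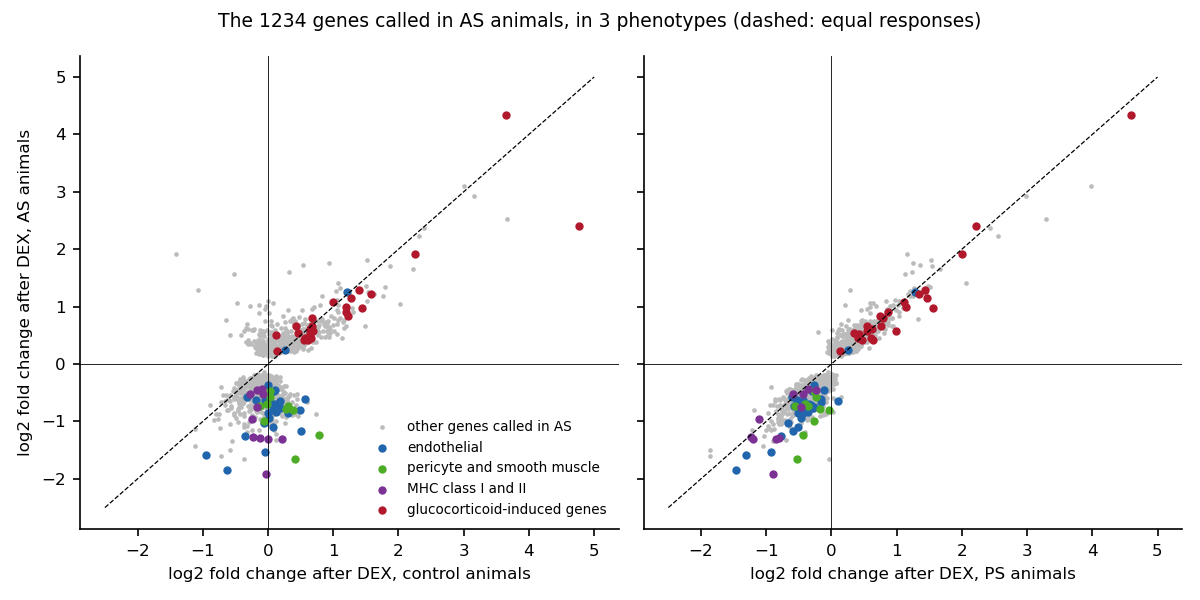
Log2 fold changes of the 1234 genes called in AS, with AS on the y axis and control (left) or PS (right) on the x axis. The genes were chosen by their AS values, which favors large values on the y axis. Points are genes, 4 lists are colored and the dashed line marks equal responses; glucocorticoid-induced genes mostly lie near the line in both panels, and endothelial and mural genes that fell in AS lie around 0 in control.

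For the difference between the AS and the control response, 49 genes (0.348%) passed the limma threshold, 26 with a higher and 23 with a lower log2 fold change in AS than in control, and 1902 had an unadjusted p under 0.05. This count was unstable. With libraries thinned to equal depth it was 35. It fell to 4 without saline mouse 8, saline mouse 40 or DEX mouse 42, to 8 without DEX mouse 38, to 7 with a library size covariate and to 1 after a filter at a mean of 100, and it rose to 439 in DESeq2, 686 without saline mouse 44, 221 without DEX mouse 60, 157 without saline mouse 14 and 118 without DEX mouse 72. Leaving out 1 control library gave 4 (saline mouse 117) to 664 (DEX mouse 112) calls, and leaving out 1 PS library 21 (DEX mouse 6) to 172 (DEX mouse 34). Among the 26, 13 had risen in AS, 10 were pseudogenes, which make up 2.85% of the table, and 17 had fallen in control. The 5 largest differences were those of Rpl17-ps8, Rpl36-ps2, Rpl19-ps7, Rpl34-ps1 and Gm13339, from 3.12 to 3.40 (log2). Rpl34-ps1 had 8.27, 8.198, 6.13 and 6.12 normalized counts in AS with saline and 13.1, 9.21, 19.8 and 12.7 with DEX, and log2 fold changes of 0.81 in AS (limma adjusted p = 0.135) and -2.36 in control (limma adjusted p = 2.01e-05). Pseudogenes share sequence with their parent genes, so their counts are uncertain. Syt2 differed by 1.54 (SE 0.34, limma adjusted p = 0.0785), at 1.06 in AS and -0.48 in control.

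The 23 genes with a lower value in AS were all protein-coding, and 15 of them had fallen in AS. The 5 lowest were Ppic, an endoplasmic reticulum isomerase (-1.60), H2-Eb1 (-1.53), Mmrn2 (-1.48), the riboflavin transporter Slc52a3 (-1.37) and the vitamin A receptor Stra6 (-1.32). Mmrn2 had 209, 113, 232 and 151 normalized counts in AS with saline and 64.3, 39.5, 80.1 and 56.4 with DEX, without overlap. It fell by 1.53 in AS and had a log2 fold change of -0.05 in control (limma adjusted p = 0.963), and the difference had a limma adjusted p of 0.0954. Hspb1 differed by -1.25, with -0.66 in AS and 0.59 in control. Of the 56 endothelial genes 5 were among the 23, which came from all 14074 genes. The total of 49 calls fell to 4 without saline mouse 8 or 40, the mice highest in the endothelial list. Without mice 44 and 60, a choice made after seeing the data, the difference was called for 591 genes, among them all 49.

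For the difference between the AS and the PS response 0 genes (0%) passed in limma, edgeR or DESeq2, and 344 had an unadjusted p under 0.05 in limma. The difference was thus not detectable gene by gene with 4 animals a group. By the size of the difference alone the extremes were low genes. The highest was Gh, the growth hormone gene, at 1.18, 0, 14.3 and 0 normalized counts in AS with saline and 21.6, 0.542, 19.8 and 32.2 with DEX, and the lowest the ribosomal RNA gene n-R5s197. Ugt8a, a myelin lipid enzyme, and Crocc, a ciliary rootlet protein, which were to be named whatever their values, had log2 fold changes of 0.38 and -0.33 in AS (limma adjusted p = 0.131 and 0.104).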

How the data were processed

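PFC poly(A) RNA of 24 male mice, 1 mouse per library, had been sequenced with a strand-specific protocol. According to the submitters' processing notes the authors used fastp 0.20.1, HISAT2 2.2.1, featureCounts of Subread 2.0, the mouse build mm10 and DESeq2 1.36.0. The deposited table holds a signal, read counts that the authors divided by a size factor per library. Column names carry library codes, in which the code dep2 stands for AS by its sample labels. Whole reads were recovered from the steps of these values (100% of values within 0.01 of a whole read), which gave the depths. The deposited tables of the authors' own fold changes and p-values were not used, except for gene coordinates. The dorsal raphe was not analysed here.

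The fit used limma 3.58.1 in R 4.3.3 (trend, 1 mean per group, 24 libraries, two-sided, Benjamini-Hochberg over all 14074 genes) on log2(normalized count + 1), with an adjusted p under 0.1 as the threshold. The scripts were tested on simulated data. Alternatives were edgeR 4.0.16 and DESeq2 1.42.0 on the recovered reads, TMM and quantile scaling, a pseudocount of 8, filters at means of 10 and 100, thinning to equal depth, a library size covariate, the 8 AS libraries (or the groups compared) alone, and leaving out each library. The fit without mice 44 and 60 was chosen after seeing the data. With 4 animals against 4 an exact permutation test of a single value cannot go below p = 0.0286.

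Genes were named by rule: 4 genes as a check of the labels, the 10 largest rises and falls with separate groups and a mean of at least 50 normalized counts, leading and most abundant genes of each list, and the 5 extremes of each difference between phenotypes. Promoter windows name those with the element that rose. Some genes that the rule names are not reported here. A few others were chosen after their values were seen. The members and gene lists were chosen with earlier results of these data known. Counts of near-identical genes and of pseudogenes are uncertain.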

Additional observations from a re-analysis of the deposited data

Results flagged for a closer look

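Single libraries stood apart from the other 3 of their group, by a gap to the nearest library that took up most of the group's range (Dixon's test). Over 288 groups screened there were 13 such flags, where the test flags about 1 in 20 independent groups by chance. The genes screened share libraries, and many were named because their groups were separate. The number of flags therefore cannot tell whether they are chance. DEX mouse 60 was high for Gkn3 (gap 0.8884 of the range), Tie1 (0.968), H2-Q6 (0.8835) and Pvalb (0.869, 1673 normalized counts against 867 to 972). DEX mouse 72 was high for Kcnj13 (0.9701), Car14 (0.956, 373 against 235 to 241) and Angptl4 (0.8491), and DEX mouse 38 for Kcna5 (0.8918). Saline mouse 44 was high for Mfsd2a (0.9019) and low for Lama3 (0.9231, 215 against 358 to 370) and Cckbr (0.9531), and saline mouse 40 was high for Stra6 (0.8457) and Gh (0.9174).

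The response to DEX differed between AS and control animals for 49 genes in the limma interaction test, a count that ranged from 4 to 686 with 1 library left out and was 7 with a library size covariate, 1 at a mean of at least 100 and 439 in DESeq2. Of the genes named, the difference in log2 fold change was 3.3991 for Rpl17-ps8, 3.2053 for Rpl36-ps2, 3.1956 for Rpl19-ps7, 3.1679 for Rpl34-ps1, 3.1208 for Gm13339 and 1.544 for Syt2. It was -1.6001 for Ppic, -1.5268 for H2-Eb1, -1.4756 for Mmrn2, -1.3663 for Slc52a3, -1.3211 for Stra6 and -1.2531 for Hspb1.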

How the results depend on the processing

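The 1234 calls in AS became 753 (301 that rose, 452 that fell) with the AS libraries fitted alone and 1874 (849 that rose) without mice 44 and 60, and stayed within 1.5 times in the other settings that kept all libraries. Leaving out 1 library at a time gave 673 to 1985 calls, 328 to 857 that rose and 345 to 1128 that fell. The 49 calls of the difference from control became 439 in DESeq2, 77 in edgeR, 7 with a library size covariate, 1 after a filter at a mean of 100, 82 with only the groups compared, 31 after quantile normalization and 591 without mice 44 and 60, and 4 to 686 with 1 library left out. The difference from PS gave 0 calls in every setting. Of 125 named genes that passed, 82 passed in every alternative in which they were tested and 0 changed sign. There were 35 alternatives, and some low genes were not tested in all of them. Of the 19 named genes that had not passed, these changed sign in some settings. Slc17a7 had -0.0060 after quantile normalization and -0.000878 to 0.0595 with 1 library left out. With 1 library left out, Hbb-bs ranged from -0.468 to 0.0807, B2m from -0.135 to 0.0364, Slc1a2 from -0.185 to 0.0167 and Rpl36-ps2 from -0.201 to 0.243. Rpl36-ps2 had 0.161 in edgeR, 0.137 after quantile normalization and 0.0909 without mice 44 and 60. The cause was not tested. No paired analysis was possible because mouse numbers do not recur between groups.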
